A study of Homo sapiens with 28 samples.

Results

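Human embryonic stem (ES) cell lines are taken from early embryos and can form all tissues of the body. The results below concern 6 such lines (H9, H14, Shef3, Shef5, Shef6 and Shef7), which are all the ES lines among the 14 arrays of the series and were chosen by their labels alone. Every line was grown on mouse embryo fibroblasts that had been inactivated with mitomycin C (feeders), in knock-out DMEM with serum replacement and FGF at 4 ng/ml. Every line was also sorted by flow cytometry for SSEA3, a globo-series glycolipid on the surface of undifferentiated human pluripotent cells, before RNA was taken. RNA was read on an Affymetrix Human Exon 1.0 ST array, 1 array per line. The labels name no genetic change or second culture for any line. A difference between lines and a difference between arrays can therefore not be told apart for a single gene, and fewer cells of a type cannot be told apart from less RNA per cell.

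Pluripotency in human cells is held by a small circuit of transcription factors, among them POU5F1, SOX2 and NANOG, together with signalling through FGF and through activin or nodal. Human ES cells resemble the primed, post-implantation epiblast more than the naive inner cell mass. Cultured pluripotent lines are also known to differ from each other at imprinted loci and at single promoters that gain or lose DNA methylation. The data were described as a level, the mean of the log2 signal over the 6 lines, and as a spread, the standard deviation (SD) over the 6 lines. Genes were picked by these same values, so levels and spreads are given as descriptions without tests. Signals of different genes come from different probes, so their order is an order of array signal and not of RNA amount.

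The labels fitted the marker genes. SOX2, read from its 6 probesets (groups of probes within an exon) because no gene-level value carried its symbol alone, lay between 8.87 and 11.89 over all probesets and lines. The brighter of the 2 NANOG probesets read 11.34 in H14, 11.49 in Shef5, 9.41 in Shef6, 11.57 in Shef3, 10.42 in H9 and 11.09 in Shef7. The brightest of 4 POU5F1 probesets read 8.94, 9.18, 7.43, 8.25, 8.90 and 7.25 in the same order. SOX2 was thus bright everywhere, while the probesets of the other genes ordered the lines differently. The second NANOG probeset was lowest in Shef7 (7.34) and Shef6 (7.75), and the second brightest of POU5F1 was highest in Shef6 (7.36 against 5.81 to 6.96). The remaining POU5F1 probesets were dim, with means of 3.20 and 3.37 over the lines. Markers of other cells were mixed. CD45 (PTPRC, a pan-blood marker) was dim at 1.99 ± 0.06 (SD, n = 6), as were the placental hormone subunit CGA (3.47 ± 0.20) and the fibroblast proteoglycan decorin (DCN, 2.43 ± 0.35). Of all 14211 genes, 7655 lay above the median level of all clusters (6.28). So did 1 of 13 blood and endothelial markers, 3 of 14 trophoblast and amnion, and 5 of 16 neural and ectoderm. The counts were 9 of 16 for endoderm, 9 of 14 for mesoderm and primitive streak, and 16 of 26 for fibroblast and matrix genes. The collagen COL1A1 was at 7.11 to 9.22.

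The lines were alike over most of the array. The SD had a median of 0.29 over 22011 transcript clusters (the gene-level units of the array), with quartiles at 0.20 and 0.42, and 83.2% of clusters had an SD under 0.5. Pairs of lines correlated across clusters with r from 0.963 (Shef5 with Shef6) to 0.984 (H14 with Shef5), and array medians ran from 6.19 to 6.33. An SD of at least 1 was found in 305 clusters, 1.39% of all. Most of these carried no symbol or several, and 78 carried 1. Counted once per gene, 74 of 14211 genes had an SD of at least 1, or 0.521%, against a median SD over genes of 0.26.

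**Figure D1:**
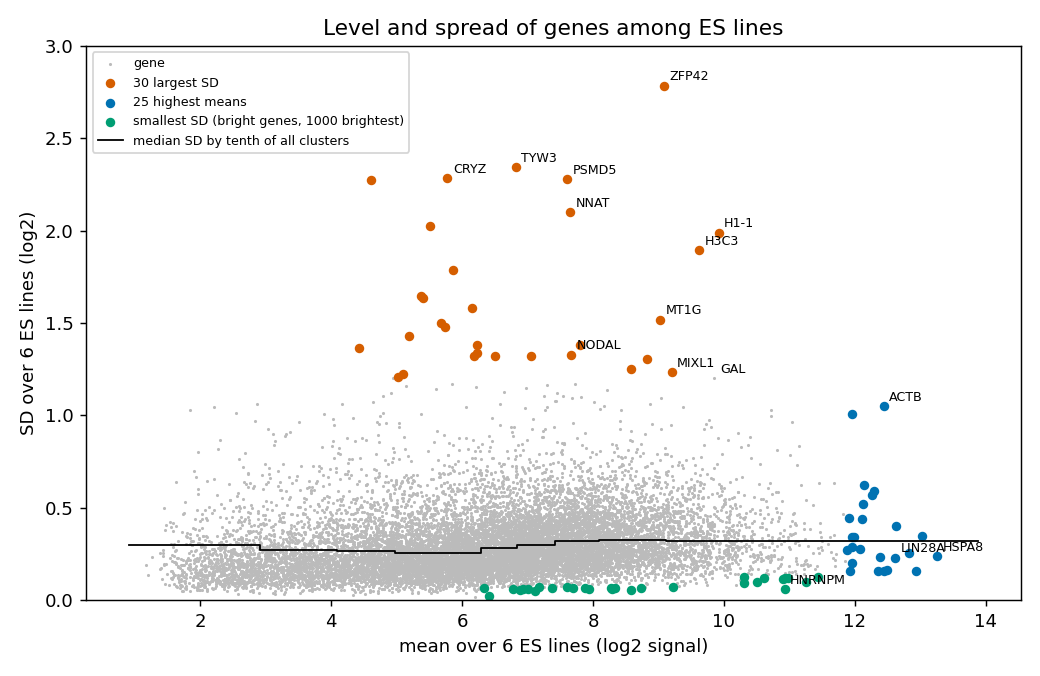
Mean (x axis) and SD (y axis) of the log2 signal over the 6 ES lines for 14211 genes, with the 25 highest means, the 30 largest SDs and the smallest SDs among bright genes in colour; the line is the median SD of clusters of similar level. ZFP42 stands alone at the top with an SD of 2.79, and most of the brightest genes lie near the median line, with ACTB well above it.

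Among the 14211 genes with a cluster of their own symbol, the brightest were those of growth, glycolysis, chromatin and the cytoskeleton. LIN28A was the pluripotency gene among them. Genes without such a cluster, such as GAPDH, EEF1A1 and RPLP0, were not ranked. The brightest GAPDH probeset had a mean of 13.81 at exon level, and the highest cluster mean of all was 13.88. The heat shock cognate chaperone HSPA8 had the highest level of the genes ranked, at 13.26 ± 0.24 (SD, n = 6). Its values ran from 12.88 in Shef6 to 13.48 in Shef7. The glycolytic enzymes ENO1 (12.83 ± 0.26) and LDHA (12.38 ± 0.23), with LDHB (12.35 ± 0.16), were close behind. The cytoplasmic actin ACTG1 reached 12.93 ± 0.16 and the growth regulator PA2G4 12.49 ± 0.16. These genes differed little among lines, with SDs below the median of all genes.

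LIN28A, an RNA-binding protein that blocks maturation of let-7 microRNAs, had the sixth highest level of the genes ranked. Its signal was 12.52 in H14, 12.47 in Shef5, 12.52 in Shef6, 12.80 in Shef3, 12.98 in H9 and 12.38 in Shef7, or 12.61 ± 0.23. No line stood apart. Its paralogue LIN28B was dimmer, at 9.15 ± 0.53, with H14 at 8.53 and Shef5 at 8.48 below the other lines, which lay between 9.25 and 9.80.

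Histone genes formed the largest family at the top of the genes ranked, with 7 of the 25 highest means. Other families were covered in part, since 20 of 53 listed ribosomal protein genes and 17 of 27 translation and chaperone genes could be ranked. The 7 histone genes were H2BC14 (13.03 ± 0.35), H4C3 (12.64 ± 0.40), H3C2 (12.30 ± 0.59), H1-4 (12.14 ± 0.63), H2AC21 (12.12 ± 0.52), H3C11 (12.08 ± 0.28) and H2AC16 (11.95 ± 1.01). Their transcripts mostly lack poly(A) tails and are made in S phase. The rest of the 25 were the mitochondrial respiratory subunit ND5, ACTB, RPS24, HSP90AA1, SET, HNRNPA2B1, APP, CALR, PDIA6, EIF2S3 and MYL6. MYL6 closed the group at 11.88, just above LAPTM4A at 11.86. In all, 10 of the 25 had an SD below the median of all genes. Membership of the top was only partly shared between lines: 50 genes were among the 100 brightest in every line, and 170 were so in at least 1 line.

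The pluripotency genes beyond this group were bright as a set. Of 30 listed genes 24 had a gene-level value of their own, and all 24 lay above the median of all clusters, with a median level of 9.36 against 6.47 for all genes. The adhesion protein podocalyxin (PODXL, which carries the TRA-1-60 epitope) reached 11.49 ± 0.29, the de novo DNA methyltransferase DNMT3B 11.44 ± 0.26, the zinc finger factor SALL4 10.91 ± 0.32, E-cadherin (CDH1) 10.51 ± 0.17 and DPPA4 10.41 ± 0.35. Their median SD was 0.36, against 0.26 for all genes and 0.30 for genes above the median level of all clusters. For clusters with means from 9.12 to 13.88 it was 0.32. Of the 24 genes 3 had an SD of at least 1 (ZFP42, GAL and GDF3), against 0.521% of all genes. Shef7 was the lowest line for 12 of the 24, against 17.1% of all genes, and for 14 after quantile normalisation. Shef6 was lowest for 6, against 29.2% of all genes.

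GAL, the neuropeptide galanin that human ES cells make at a high level, read 11.53 in H14, 10.50 in Shef5, 9.30 in Shef6, 9.72 in Shef3, 10.11 in H9 and 7.96 in Shef7. GDF3, a TGF-beta family ligand, read 9.06 in H14, 8.94 in Shef5, 7.75 in Shef6, 7.62 in Shef3, 7.06 in H9 and 5.94 in Shef7. In both genes H14 was the highest line and Shef7 the lowest. Naive pluripotency genes were dimmer and evenly so: the 10 measured had a median level of 5.97 and a median SD of 0.24, led by FGF4 at 7.58 ± 0.44. Primed-state genes were bright and more variable, with a median level of 8.87 and a median SD of 0.47 over 13 genes. OTX2, a homeobox factor of the primed epiblast, ran from 8.23 in Shef5 to 10.79 in Shef3.

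Among 11005 clusters above the median level of all clusters (6.28, called bright here), 152 had an SD under 0.1, or 1.38%. The mitochondrial carrier SLC25A34 had the smallest, 0.02, with every line between 6.39 and 6.45. The next were the kinase TESK2, the uracil-DNA glycosylase SMUG1, SPTLC1 (a subunit of the enzyme that starts sphingolipid synthesis) and KCP, with SDs of 0.05 or 0.06. All but SPTLC1 (8.58) lay within 1 of the median level of all clusters.

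Stable genes of high signal were found among the 1000 brightest clusters. The splicing factor HNRNPM read 10.97 in H14, 10.94 in Shef5, 10.83 in Shef6, 10.97 in Shef3, 10.98 in H9 and 10.87 in Shef7, an SD of 0.06. The GTPase ARF3 (10.30 ± 0.09), the mannose 6-phosphate receptor M6PR (10.51 ± 0.10), the chaperone calnexin (CANX, 11.25 ± 0.10) and ATP citrate lyase (ACLY, 10.90 ± 0.11) followed. NARS1, APLP2, TAGLN2, SCD and TMBIM6 completed this group, with SDs of 0.12 or 0.13. Other bright genes with an SD of 0.06 or 0.07 served protein quality control (DERL1, UBE2J2, OSTC, DNAJA3, SIAH2), signalling and transcription (NF2, MYD88, UBP1, HDAC4), autophagy (ATG9A) and genome upkeep (RMI2), and KRABD3, WDR5CP and ECEL1 were the rest of the 20. The edge of this group was narrow: the 20th smallest SD was 0.0710 and the next 0.0712.

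The 4 genes with the largest spread, ZFP42, TYW3, CRYZ and PSMD5, were bright in most lines and dim in 1 or 2. ZFP42 (REX1), a zinc finger protein used as a marker of undifferentiated cells, had the largest SD of all genes, 2.79. It read 9.91 in H14, 10.05 in Shef5, 10.31 in Shef6, 3.41 in Shef3, 10.55 in H9 and 10.25 in Shef7. Shef3 lay far below the nearest line, and without it the SD was 0.25. Signal over background is unknown, so no fold is given for lines this dim. All 9 probesets of the gene separated Shef3 from the other lines by at least 1. In the same array LIN28A, DNMT3B, SALL4 and PRDM14 (10.23) were within or above the range of the other lines.

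PSMD5, a chaperone in assembly of the proteasome's regulatory particle, was low in Shef7. It read 8.77 in H14, 7.71 in Shef5, 8.97 in Shef6, 8.97 in Shef3, 8.14 in H9 and 3.07 in Shef7, which was far below the other lines. Of its 12 probesets 11 separated Shef7 by at least 1, and without Shef7 the SD was 0.57 in place of 2.28. The other proteasome genes did not share this: 24 measured subunits had SDs of at most 0.64, and the lowest in Shef7 was PSMD4 at 5.97, which was dim in every line. THUMPD3, a tRNA methyltransferase, was low in H9 alone, at 4.99 against 8.11 to 8.50 in the other lines. The gap of at least 1 was present in 15 of 17 probesets, and without H9 the SD was 0.17 in place of 1.38.

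TYW3 and CRYZ, neighbours on chromosome 1, were low in the same pair of lines. TYW3, an enzyme of wybutosine synthesis in tRNA, read 8.50 in H14, 8.30 in Shef5, 7.82 in Shef6, 8.64 in Shef3, 3.55 in H9 and 4.10 in Shef7. CRYZ, a quinone reductase known as zeta-crystallin, read 7.54, 6.46, 7.03, 7.83, 3.09 and 2.69 in that order. H9 and Shef7 did not overlap with the other lines in either gene. At TYW3 8 of 9 probesets showed the gap; the remaining probeset was as bright in H9 (7.71) and Shef7 (8.57) as in the other lines (7.11 to 8.65). At CRYZ 12 of 15 did so by at least 1.

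**Figure D2:**
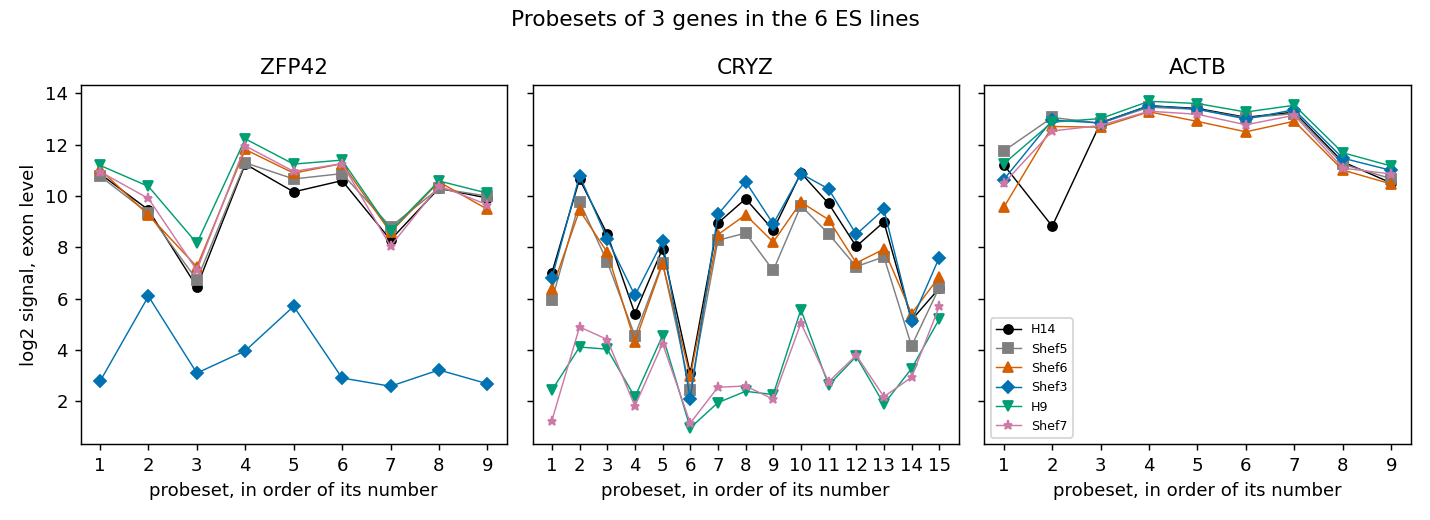
Log2 signal (y axis) of each probeset (x axis, in order of probeset number) of ZFP42, CRYZ and ACTB, with 1 line of points per ES line. Shef3 lies below the other lines at all 9 ZFP42 probesets, H9 and Shef7 lie low across CRYZ, and H14 departs at ACTB in a single probeset.

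The promoters of 4 of these genes are shown because their signal differed widely between lines in most of their probesets. RefSeq sequence of build GRCh38.p14 was taken from 250 bases before to 50 after the gene start, and reads 5' to 3' on the strand of the gene, with each CpG in capitals. CG, which reads the same on both strands and overlaps no other motif searched, was the motif counted.
ZFP42 (chr4:187995521-187995820, plus strand): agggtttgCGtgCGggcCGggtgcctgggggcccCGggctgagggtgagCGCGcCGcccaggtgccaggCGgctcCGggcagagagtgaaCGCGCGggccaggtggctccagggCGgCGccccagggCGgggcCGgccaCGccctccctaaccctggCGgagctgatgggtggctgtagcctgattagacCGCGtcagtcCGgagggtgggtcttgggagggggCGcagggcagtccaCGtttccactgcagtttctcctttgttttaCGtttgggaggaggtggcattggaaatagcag
CRYZ (chr1:74733001-74733300, minus strand): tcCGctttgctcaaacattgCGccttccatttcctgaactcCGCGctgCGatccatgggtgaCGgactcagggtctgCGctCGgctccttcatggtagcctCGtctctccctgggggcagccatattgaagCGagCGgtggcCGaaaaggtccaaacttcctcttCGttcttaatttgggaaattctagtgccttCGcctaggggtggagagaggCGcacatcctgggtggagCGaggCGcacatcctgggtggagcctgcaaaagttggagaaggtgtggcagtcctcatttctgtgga
PSMD5 (chr9:120842873-120843172, minus strand): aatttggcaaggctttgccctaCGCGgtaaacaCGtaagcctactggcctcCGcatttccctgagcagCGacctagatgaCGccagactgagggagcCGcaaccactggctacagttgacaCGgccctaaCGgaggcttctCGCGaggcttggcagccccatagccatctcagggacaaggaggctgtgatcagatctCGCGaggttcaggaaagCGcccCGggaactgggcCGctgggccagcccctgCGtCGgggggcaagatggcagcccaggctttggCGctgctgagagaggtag
THUMPD3 (chr3:9362804-9363103, plus strand): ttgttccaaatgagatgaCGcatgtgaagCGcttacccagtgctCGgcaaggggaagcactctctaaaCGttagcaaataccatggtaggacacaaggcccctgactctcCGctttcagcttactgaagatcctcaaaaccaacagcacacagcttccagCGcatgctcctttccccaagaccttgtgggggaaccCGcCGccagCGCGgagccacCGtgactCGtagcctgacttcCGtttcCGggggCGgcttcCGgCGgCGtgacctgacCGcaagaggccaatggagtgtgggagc
The ZFP42 promoter holds 24 CpG in 300 bases, and 48.9% of 11383 promoters of measured genes held as many or more. The CRYZ promoter holds 17 (65.5% held as many or more), and those of PSMD5 and THUMPD3 19 each (61.7%). All promoters had a median of 23, and the 17 genes with a promoter entry among those with a wide gap between lines (below) had a median of 20.

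Genes of this kind were then counted with a fixed gap. Ordered by signal, 24 of 14211 genes (0.169%) had a gap of at least 2 between neighbouring lines, where a gap of 2 is a 4-fold step. In 13 of them 1 line was low, in 7 1 line was high, and in 4 more than 1 line was low. KRTAP6-3 lay just inside the limit at 2.10, and ZNF667-AS1 just outside at 1.96. In 18 of the 24 over 50% of the probesets separated the same lines by at least 1, and in the other 6 they did not.

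**Figure D3:**
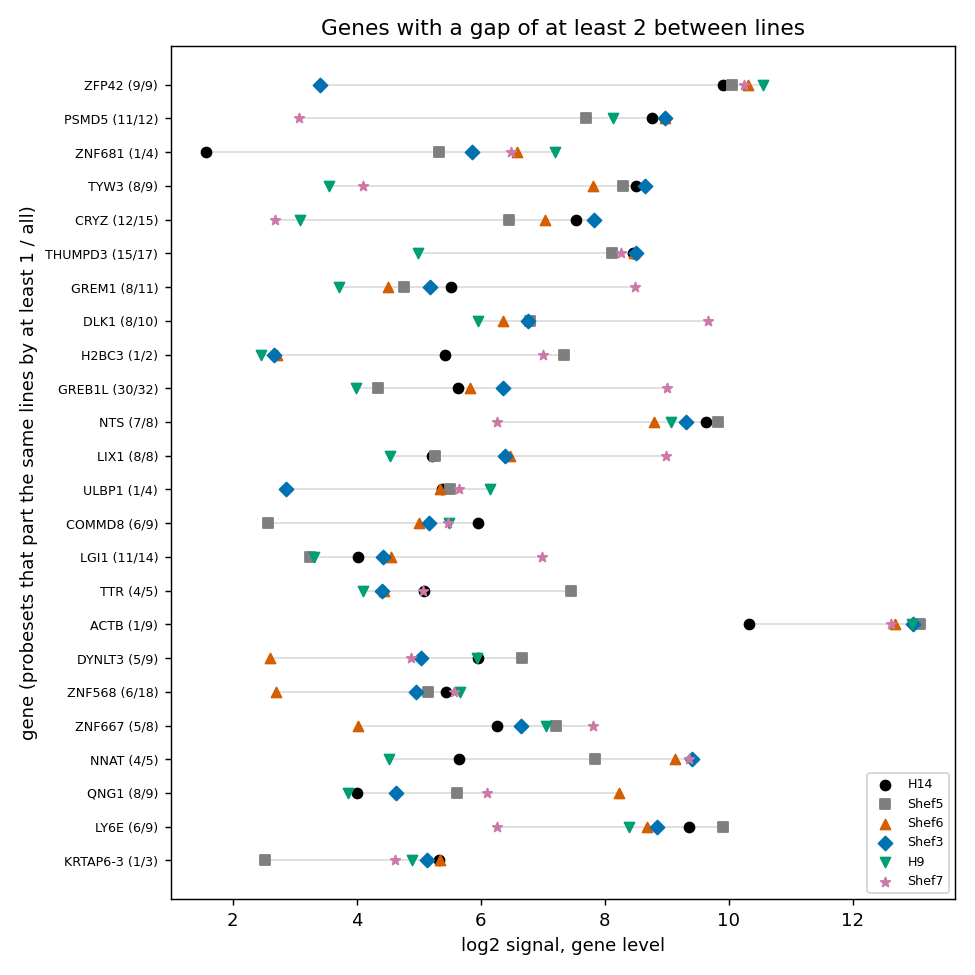
Gene-level log2 signal (x axis) in each ES line for the 24 genes with a gap of at least 2, ordered by gap; numbers after each symbol are the probesets that part the same lines by at least 1 and all probesets of the gene. ZFP42, PSMD5, TYW3, CRYZ and THUMPD3 show wide gaps in most probesets, while ACTB, ZNF681, ULBP1, H2BC3 and KRTAP6-3 have 1 probeset that does so.

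The 5 genes with only 1 probeset that passed a gap of 1 included ACTB, the cytoplasmic beta-actin often used as a reference. At gene level it read 10.33 in H14 and 12.62 to 13.08 in the other lines, which gave it an SD of 1.05 and only 0.20 without H14. A single probeset of 9 was low in H14, at 8.83 against 12.54 to 13.07. At the other 8 H14 lay within the range of the remaining lines, and the median of the probesets had an SD of 0.15. For ZNF681, a zinc finger gene listed at 1.58 in H14 and 5.32 to 7.20 elsewhere, 1 of 4 probesets passed a gap of 1, and 3 of 4 put H14 lowest by some margin. There was likewise 1 such probeset for the NKG2D ligand ULBP1 in Shef3 (2.86 against 5.34 to 6.15; 1 of 4), KRTAP6-3 in Shef5 (1 of 3) and the histone gene H2BC3 (1 of 2, the other separating the same lines by 0.70). Without the line that was low the SDs were 0.72 for ZNF681, 0.33 for ULBP1 and 0.31 for KRTAP6-3.

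Genes high in 1 line with most probesets behind them belonged mainly to Shef7. GREB1L, a gene of kidney and inner ear development, read 9.0 there and 3.99 to 6.36 in the others, with 30 of 32 probesets separating Shef7. The BMP antagonist GREM1 was at 8.48 against 3.72 to 5.52, LIX1 at 8.99 against 4.54 to 6.47, the neuronal secreted protein LGI1 at 6.98 against 3.25 to 4.56, and the imprinted NOTCH-like ligand DLK1 at 9.66 against 5.96 to 6.80. Without Shef7 their SDs were 1.02, 0.69, 0.83, 0.61 and 0.37. Shef7 was also the lowest line, by over 2, for the peptide neurotensin (NTS, 6.26 against 8.80 to 9.83) and for LY6E (6.27 against 8.39 to 9.91), whose SDs without it were 0.42 and 0.60. Shef7 was also the highest line for 11 of 16 neural and ectoderm markers (68.8%, against 13.8% of all genes), with PAX6 at 5.70 against 3.61 to 4.18, PAX3 at 6.59 against 4.49 to 4.72 and MAP2 at 6.66 against 4.38 to 5.15. Without Shef7 the SDs of PAX6, PAX3 and MAP2 were 0.22, 0.08 and 0.31. SOX1, the early neural plate factor, was at 6.65 in Shef7 against 5.60 to 6.45, and the list stood a median of 0.32 above the middle of the 6 lines. The part of other cells in the Shef7 values was not tested.

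Shef6 and Shef5 had their own genes. In Shef6 the nucleoside glycosylase QNG1 was high, at 8.23 against 3.87 to 6.10, and the dynein light chain DYNLT3 was low, at 2.60 against 4.88 to 6.67. Also low there were the zinc finger genes ZNF568 (2.69 against 4.95 to 5.67, with 6 of 18 probesets separating Shef6 by at least 1 and no gap of 2 in the median of its probesets), ZNF667 (4.02 against 6.27 to 7.82) and the neighbouring antisense RNA ZNF667-AS1 (3.87 against 5.82 to 7.73). ZNF667 and its antisense RNA share a locus and are not independent. Without Shef6 the SDs of QNG1, DYNLT3, ZNF568 and ZNF667 were 0.98, 0.74, 0.30 and 0.58. In Shef5 COMMD8 was low at 2.57 against 5.00 to 5.95, and the nearest gene on 1 side, ATP10D, was lowest there too, at 3.77 against 4.80 to 5.48. The SD of COMMD8 was 1.20, and 0.36 without Shef5. Across all 24 genes, 5 of 48 nearest neighbours separated the same lines by at least 1. These were TYW3 and CRYZ for each other, H3C3 beside H2BC3, ZNF667-AS1 beside ZNF667, and ATP10D beside COMMD8. The pair of TYW3 and CRYZ is thus counted from both sides. The share among neighbours of all genes was not counted, so the 5 of 48 is a description.

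**Figure D4:**
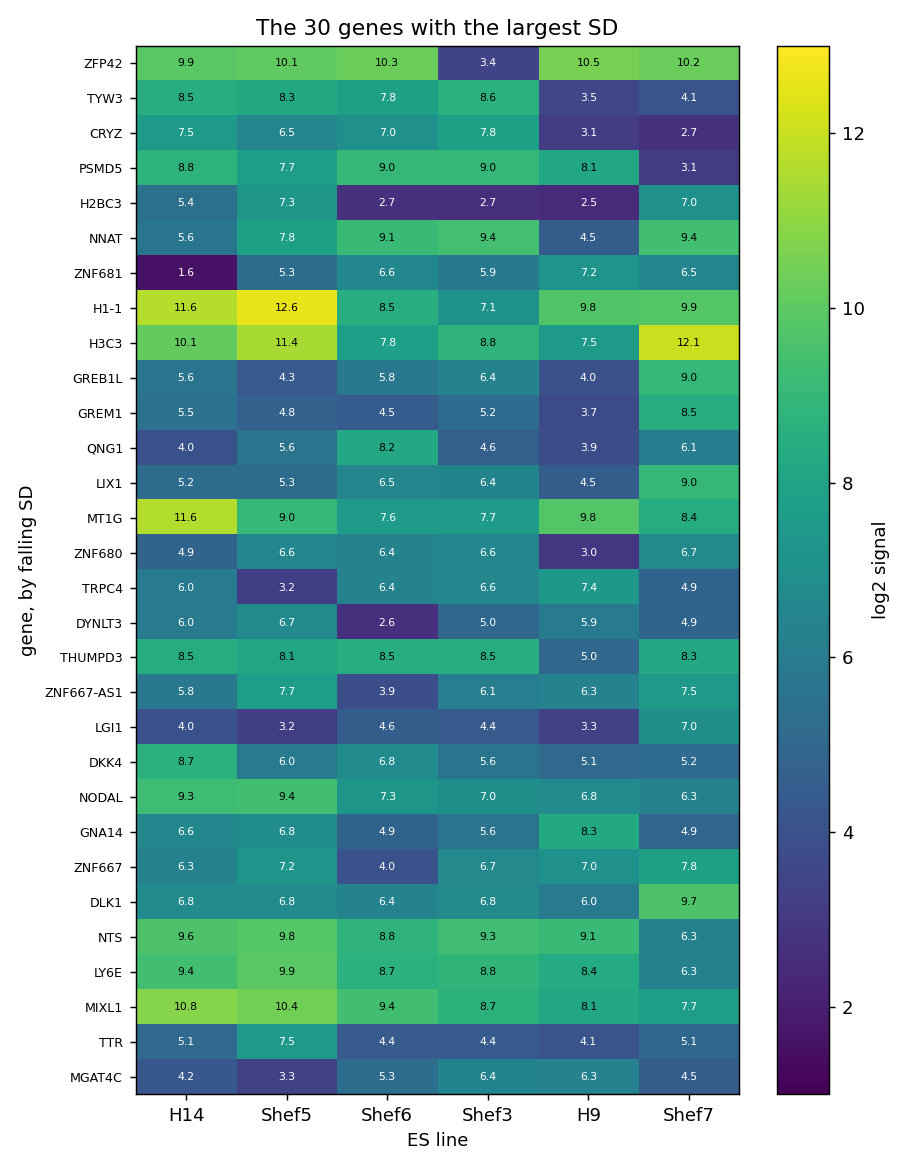
Log2 signal (colour and printed value) of the 30 genes with the largest SD (rows, by falling SD) in each of the 6 ES lines (columns). Single dark cells mark ZFP42 in Shef3, PSMD5 in Shef7 and THUMPD3 in H9, while NODAL and MIXL1 fall from H14 and Shef5 to the other lines.

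Shef5 also held the highest values of several endoderm and matrix genes. Transthyretin (TTR), a plasma protein of visceral endoderm and liver, was at 7.46 in Shef5 against 4.10 to 5.09 in the others, and its SD without Shef5 was 0.44 in place of 1.22. Alpha-fetoprotein (AFP) was at 4.84 against 2.35 to 3.80, APOA2 at 7.09 against 5.05 to 5.85 and APOA1 at 7.96 against 6.14 to 7.11. Over the 16 measured endoderm markers H14 was the highest line for 9 (56.2%, against 21.2% of all genes) and Shef5 for 5 (31.2%, against 21.5%). The share of Shef5 was larger in other lists. It was the highest line for 13 of 20 amino acid stress and ATF4 targets (65%) and 9 of 14 trophoblast and amnion markers (64.3%). The same held for 8 of 16 immediate early and heat shock genes (50%). Lumican (LUM), a proteoglycan of fibroblasts, was at 4.48 against 1.63 to 2.53. Without Shef5 the SDs of AFP and LUM were 0.55 and 0.41 in place of 0.90 and 1.01. Over 26 measured fibroblast and extracellular matrix genes Shef5 was the highest line for 11 (42.3%, against 21.5% of all genes), and the mean level of the list was 6.83 in H14, 7.04 in Shef5, 6.41 in Shef6, 6.28 in Shef3, 6.53 in H9 and 6.28 in Shef7. COL1A1 read 8.92, 9.22, 7.82, 7.11, 7.58 and 7.96 in that order, so H14 and Shef5 were above the other lines. Both lay above all other lines for 12 of the 26 genes of the list and for 7 of the 16 endoderm markers. This was so for 21.9% of all genes. Decorin (2.14 to 3.13) and periostin (POSTN, 2.93 to 3.68) were dim in every line. Whether cells other than ES cells contributed to the Shef5 values was not tested.

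NNAT, an imprinted gene of neural and endocrine cells, divided the lines more evenly. It read 5.65 in H14, 7.84 in Shef5, 9.14 in Shef6, 9.40 in Shef3, 4.53 in H9 and 9.36 in Shef7, so H14 and H9 were low and 4 of 5 probesets separated these from the others. Among 16 measured imprinted genes 3 had an SD of at least 1, NNAT (2.10), DLK1 (1.32) and SNRPN (1.17), against 0.521% of all genes. SNRPN, from the Prader-Willi locus, ran from 4.50 in Shef5 to 7.69 in H9, but the median of its probesets had an SD of 0.54. NAP1L5 was at 5.48 in H9 against 3.44 to 3.95, and without H9 its SD was 0.22 in place of 0.72. The median SD of the imprinted list, 0.32, was close to that of bright genes, 0.30.

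Histone genes were as variable as they were bright. Over 49 measured histone genes, a list drawn up after seeing the data, the median level was 9.11. The median SD was 0.63, against 0.26 for all genes and 0.30 for bright genes. Of the 49, 43 had an SD above the median of all genes, and 6 had an SD of at least 1 (0.521% of all genes did). The linker histone H1-1 read 11.64 in H14, 12.59 in Shef5, 8.52 in Shef6, 7.15 in Shef3, 9.77 in H9 and 9.85 in Shef7. H3C3 read 10.11, 11.45, 7.78, 8.81, 7.53 and 12.06 in that order. These were exceptions, since most of the family was low in H14 and Shef5: both lay below all other lines for 32 of the 49 genes, a pattern found in 12.2% of all genes, and Shef3 was the highest line for 32. H1-5 read 10.03 in H14, 10.23 in Shef5, 11.18 in Shef6, 11.99 in Shef3, 11.61 in H9 and 11.84 in Shef7. H2AC16 was likewise lowest in H14 (11.69) and Shef5 (10.09), and without Shef5 its SD was 0.48. After quantile normalisation H14 and Shef5 were below all others for 31 of the 49, and Shef3 was highest for 26. Histone genes are near-identical copies of each other, so signal can be shared between members and single values are uncertain. By Euclidean distance of centred values over the 6 lines, the genes nearest to ZFP42 were ULBP1 (3.73), H4C1 (4.29), ZNF354C (4.46), H3C1 (4.51), GALNT3 (4.58) and H1-1 (4.81), all lowest in Shef3. The nearest was not close: Shef3 lay 2.48 below the next line for ULBP1 and 6.50 below it for ZFP42. Of the 4 ULBP1 probesets 1 showed this gap.

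Signalling genes and factors of the primitive streak and mesendoderm also differed among lines. NODAL, the TGF-beta family ligand of the primitive streak and of pluripotent cells, read 9.27 in H14, 9.37 in Shef5, 7.35 in Shef6, 6.97 in Shef3, 6.77 in H9 and 6.27 in Shef7. H14 and Shef5 were both above all other lines, and among the remaining 4 lines the SD was 0.45 in place of 1.33. MIXL1, a homeobox factor of mesendoderm, was also highest in H14 (10.80) and Shef5 (10.44) and lowest in Shef7 (7.74), but the median of its probesets had an SD of only 0.38. The streak factor TBXT ran from 7.35 in H14 and 7.26 in Shef5 down to 5.91 in H9. Over 16 nodal and activin genes the median SD was 0.40 and 2 had an SD of at least 1, against 0.521% of all genes.

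Genes of the FGF and ERK response had the largest median SD of the lists together with primed-state genes, 0.47 over 21 genes. The ETS factor ETV4 read 8.91 in H14, 9.69 in Shef5, 8.06 in Shef6, 7.70 in Shef3, 8.05 in H9 and 6.63 in Shef7. ETV5, the feedback inhibitor SPRY4 and the phosphatase DUSP6 were also lowest in Shef7, at 5.19, 6.46 and 6.56. Shef7 was the lowest line for 10 of the 21 (47.6%, against 17.1% of all genes), and the list stood there at a median of -0.43 from the middle of the 6 lines. After quantile normalisation Shef7 was lowest for 8, against 13.3% of all genes. H14 and Shef5 were both above all other lines for 10 of the 21, against 21.9% of all genes. After quantile normalisation this was so for 12, against 19.8%. WNT antagonists varied as well: DKK4 was at 8.66 in H14 against 5.12 to 6.78 in the others (SD 1.34, and 0.68 without H14), DKK1 ran from 4.72 in H9 to 7.52 in H14, and SFRP1 from 7.61 in Shef5 to 10.66 in Shef3. The metal-binding MT1G was high in H14, at 11.63 against 7.63 to 9.79, and its SD without H14 was 0.92 in place of 1.52.

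**Figure D5:**
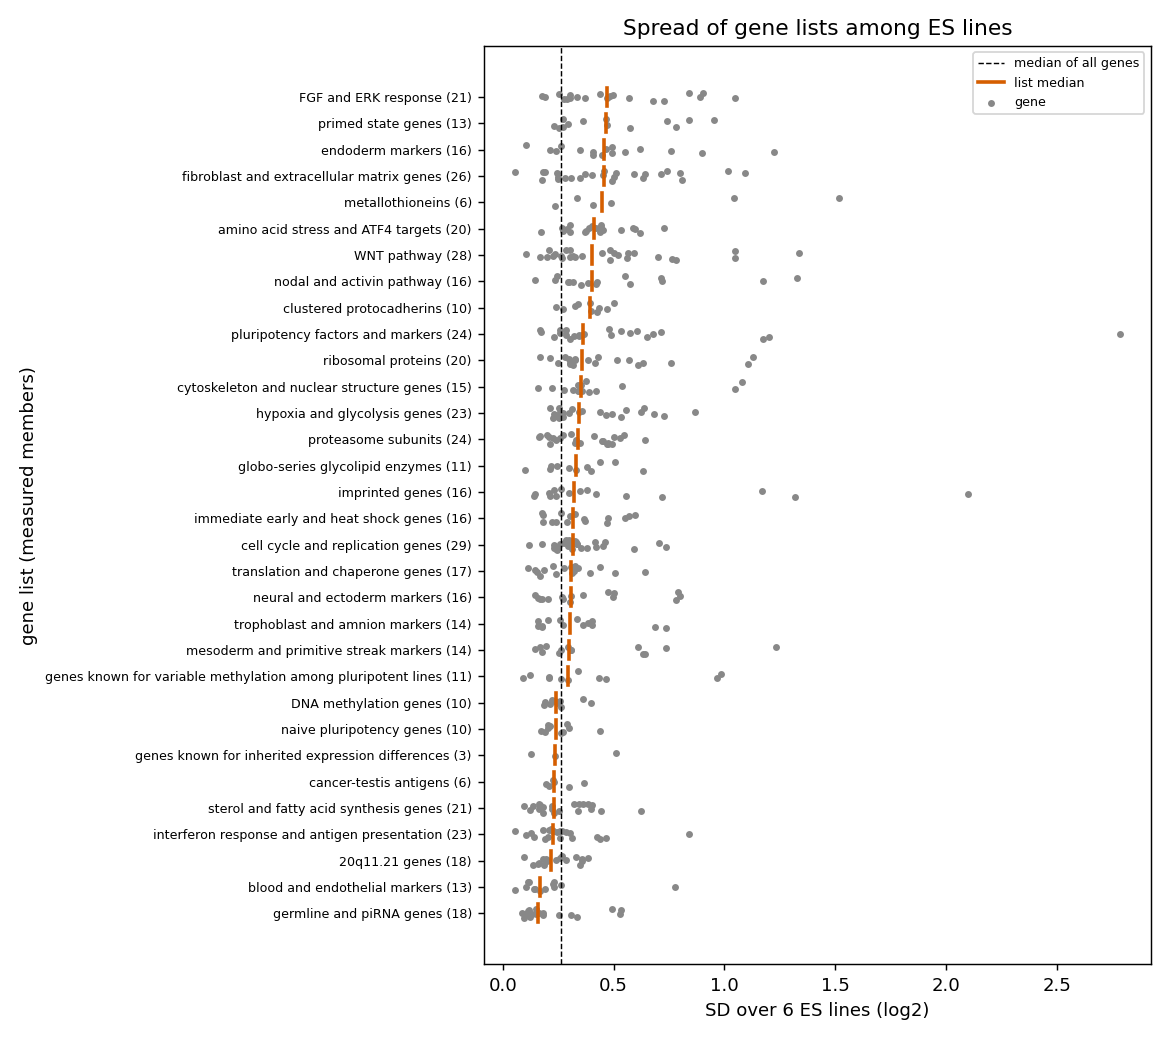
SD over the 6 ES lines (x axis) of each measured gene (points) in the 32 gene lists (y axis, measured members in brackets), with the list median (bar) and the median of all genes (dashed line). List medians run from 0.16 for germline genes to 0.47 for FGF and ERK response and primed-state genes, against 0.26 for all genes.

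The other lists differed in level and in spread. The median SD was 0.26 for all genes and 0.30 for bright genes. Of the 32 lists 23 had a median SD above that of all genes. The lowest were germline and piRNA genes (0.16, median level 3.69) and blood and endothelial markers (0.17, median level 4.99), which were dim. Of other dim lists, clustered protocadherins had a median level of 4.53 and a median SD of 0.39, and metallothioneins 5.21 and 0.45. Lists that were bright and even included sterol and fatty acid synthesis (median level 8.54, median SD 0.23) and DNA methylation genes (8.69 and 0.24). Genes of chromosome band 20q11.21, a region often gained in cultured ES lines, had a median SD of 0.22, and no line stood more than 0.09 from the middle of the lines in the list's median. The glycolipid enzymes behind SSEA3 were higher in H9 by a median of 0.45, with H9 the highest line for 6 of 11, and clustered protocadherins by 0.59, with H9 highest for 6 of 10. Of all genes H9 was the highest line for 24.8%. Shef6 was the lowest line for 17 of 24 proteasome subunits (70.8%), at a median of -0.43, and for 13 of 17 translation and chaperone genes (76.5%), at -0.44, against 29.2% of all genes. These counts were 10 and 7 after quantile normalisation, against 20.5%. H14 and Shef5 were both above all other lines for 13 of 24 proteasome subunits and for 3 of 17 translation and chaperone genes. The share over all genes was 21.9%.

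Lines differed in how many genes set them apart. Between a line and all others 165 gaps of at least 1 were found, in at most 1.16% of all genes. A gene with 1 line above and another below, such as GAL, was counted for both lines. Shef7 was above the others by at least 1 in 30 genes and below in 17, H9 in 28 and 7, and Shef5 in 18 and 18. Shef6 stood above in 4 and below in 19, Shef3 in 1 and 13, and H14 in 7 and 3. Shef3, the line with little ZFP42 signal, was thus above the others in the fewest genes.

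The labels give each array a code, and the codes of H14 and Shef5 (4 and 7) are lower than those of Shef6, Shef3, H9 and Shef7 (17, 20, 23 and 24); what the codes record is not stated. Comparing the 2 classes of codes asks how much of the spread among lines runs along them. With limma 0 of 22011 clusters (0%) passed an adjusted p of 0.05, the smallest being 0.0532, while 4476 had an unadjusted p under 0.05. The count moved with the scaling: 795 clusters (3.61%) passed after quantile normalisation, 342 higher and 453 lower in the earlier codes, and 1245 of 11005 (11.3%) passed when dim clusters were left out, 735 higher and 510 lower. The classes did not overlap in 7034 clusters, or 32% of all, and in 92 of the 305 clusters with an SD of at least 1. A median of 25.6% of a cluster's variance lay between the classes over all clusters, and 19.7% over those 305. The shares that chance gives for classes of this size were not computed, so these values are descriptions. That 0 clusters passed on the deposited values does not show that the classes were alike.

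The genes with the smallest p are given with their values, none of which passed the limma test on the deposited values. NODAL was 2.48 ± 0.29 (SE) higher in H14 and Shef5 than in the 4 other lines, with an adjusted p of 0.0554 by limma and 0.0277 after quantile normalisation. The prefoldin-like UXT was 2.19 higher, RNASEK 1.87, BACC1 1.78, the nuclear receptor NR2F6 1.46 and the growth factor VEGFB 1.42. Lower in H14 and Shef5 were PGAP1, which remodels GPI anchors (-2.02), the histone gene H4C4 (-1.53), TOR1AIP2 (-1.50), LCLAT1 (-1.39), KLHL24 (-1.33) and the helicase BRIP1 (-1.26). Line and code cannot be told apart for any of these genes. ZFP42, TYW3, CRYZ, PSMD5 and THUMPD3 were low only in lines of the later codes, and at least 2 other lines of the later codes were not low in each.

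By chromosome, the median of a line's bright genes lay mostly within 0.1 of the middle of the lines, once each line was centred on all its bright genes. There were 22 exceptions among chromosomes and lines. H9 was higher on chromosome 4 by a median of 0.25 over 265 genes, on chromosome 5 by 0.19 and on chromosome 3 by 0.17, and lower on chromosomes 16 (-0.16) and 19 (-0.15). Shef5 was higher on chromosome 19 by 0.23 over 548 genes and on X by 0.44 over 247 genes. H14, the other line of the earlier codes, was shifted the same way on chromosome 19 (0.12). On chromosome 16 H14 stood at 0.12 and Shef5 at 0.16. On X H14 lay the other way, at -0.14. Line and code cannot be told apart for these shifts. Chromosome 20 ran from -0.07 in Shef6 to 0.04 in Shef5. After quantile normalisation 14 exceptions were left. Copy number was not measured.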

How the data were processed

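RNA of 6 SSEA3-sorted human ES lines was hybridised to Affymetrix Human Exon 1.0 ST arrays, 1 array per line (n = 6). The values deposited by the authors are on a log2 scale, read from their range, 1 for each of 22011 transcript clusters at gene level and 287329 probesets at exon level. Per the submitters' processing notes they were made with RMA in Affymetrix Expression Console; versions, RMA settings and annotation release are not given in the sources used here. The 6 array medians differ, and nothing was rescaled for the values reported. Signal over background is unknown for single values, since no detection p-value was used here. Precision is limited by the number of arrays.

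Symbols came from the platform annotation and were updated through RefSeq. Of the gene-level clusters 14432 carried a single symbol, 2408 more than 1 and 5171 no symbol. For each gene the brightest cluster with 1 symbol was kept, which left 14211 genes after 9 Y-linked and X-inactivation genes were taken out. Genes without such a cluster were read from exon-level probesets, 261273 of which had 1 symbol. Promoter sequences came from RefSeq (GRCh38.p14).

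Mean, SD and gaps between ordered lines were computed in Python 3.11.15 with pandas 2.3.3, and figures with matplotlib 3.10.9. Array codes were compared with limma 3.58.1 under R 4.3.3 (a two-sided moderated test from lmFit and eBayes, Benjamini-Hochberg over all clusters, threshold 0.05), tested on simulated data beforehand. Genes are named by a rule: the 25 highest means, the 30 largest SDs, the 20 smallest SDs among bright genes and 10 among the 1000 brightest clusters, the 3 largest SDs and 2 highest means of each of 32 lists with all pluripotency genes, the 4 largest gaps each way per line, the 6 smallest p each way for codes, and the 6 genes most like the one with the largest SD. Other genes named were chosen after their values were seen. The members and lists were chosen with earlier results of these data known. The limit of 2 for a gap, its 3 alternatives and the histone list were chosen after seeing the data. The alternatives were other scalings between arrays, each line left out, the 4 lines of later codes alone, other filters and measures of spread, limma-trend, and the median of exon-level probesets. The share of genes for which each line was highest or lowest, over all genes and per list, was counted after the values had been seen.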

Additional observations from a re-analysis of the deposited data

Results flagged for a closer look

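A single line stood far from the other 5 by Dixon's ratio (gap to the nearest line over the whole range, set against its 95% critical value for 6 samples) in 13 of 91 genes looked at and on 4 of 23 chromosomes. The genes were picked for a wide spread, so the 1 in 20 given by chance is no reference for them. All 13 were also among the 24 genes with a gap of at least 2, so their count is a description.

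With a line below the others the ratio was 0.911 for ZFP42 (Shef3), 0.890 for THUMPD3 (H9), 0.831 for ACTB (H14), 0.785 for PSMD5 (Shef7), 0.760 for ZNF568 (Shef6), 0.755 for ULBP1 (Shef3), 0.744 for KRTAP6-3 (Shef5), 0.719 for COMMD8 (Shef5), 0.710 for NTS (Shef7) and 0.666 for ZNF681 (H14). With a line above the others it was 0.772 for DLK1 (Shef7), 0.706 for TTR (Shef5) and 0.648 for LGI1 (Shef7). ACTB, ULBP1, KRTAP6-3 and ZNF681 have 1 probeset each that separates the line by at least 1.

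Over the median shift of bright genes, the ratio was 0.699 for chromosome 1 (H9 above) and 0.667 for chromosome 7 (H9 above). It was 0.726 for chromosome 12 (Shef5 below, by 0.06) and 0.701 for chromosome X (Shef5 above, by 0.44). The shifts of H9 on chromosomes 1 and 7 were 0.12 and 0.11, and each was 0.07 after quantile normalisation.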

How the results depend on the processing

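The list of the 25 highest means kept 23 to 25 members under other scalings, with each line left out and in the 4 lines of later codes. The count of 305 clusters with an SD of at least 1 was 300 to 366 with a line left out, but 78 among clusters with 1 symbol and 66 with dim clusters left out, because fewer clusters are counted. The count of bright clusters with SD under 0.1, 152, varied most: it was 241 after quantile normalisation, 764 in the lines of later codes, 591 with the mean of each code class subtracted, 854 by the median absolute deviation, 759 with no filter on dim clusters and 207 to 344 with a line left out. The 22 chromosome shifts of at least 0.1 became 14 after quantile normalisation. Clusters called between codes went from 0 to 795 after quantile normalisation, 272 with arrays shifted to the same median and 1245 with dim clusters left out, and were 0 to 1 with a line left out and 0 by limma-trend (4529 with an unadjusted p under 0.05); the cause was not tested. Of the 24 genes with a gap of at least 2, 23 were also found after quantile normalisation and 17 by the median of probesets, which found 19; ACTB, KRTAP6-3, LY6E, TTR, ULBP1, ZNF568 and ZNF681 were the 7 not found. The largest SD belonged to ZFP42 except without Shef3, when it belonged to PSMD5 (2.44). SDs of named genes moved by over 1.5 times for 21 of 247 after quantile normalisation, 69 of 247 in the lines of later codes and 50 of 238 by the median of probesets. No paired analysis was possible because the labels give the lines no shared replicate numbers.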

Other observations

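A few further genes varied among lines outside the lists that led the results. Catalase (CAT), which degrades hydrogen peroxide, read 4.13 in H14, 5.60 in Shef5, 3.23 in Shef6, 4.96 in Shef3, 3.19 in H9 and 4.88 in Shef7. TSPYL5, a chromatin-associated gene, was higher in Shef3 (5.84) and H9 (5.90) than in the other lines (3.72 to 4.74). Both are known for variable methylation among pluripotent lines, and the 11 measured genes of that list had a median SD of 0.29 and none of at least 1. The interferon-induced membrane protein IFITM1 was bright and ran from 9.35 in Shef7 to 11.31 in H14. The tubulin gene TUBA1B and the ribosomal protein genes RPS4X and RPL35 had gene-level SDs of 1.08, 1.13 and 1.11, but the medians of their probesets had SDs of 0.12, 0.38 and 0.39.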
